A study of Mus musculus with 18 samples.

Results

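Acetylation of histone H3 at lysine 27 (H3K27ac) marks active promoters and enhancers, and trimethylation at lysine 4 (H3K4me3) marks active or poised gene starts. Mettl3 is the catalytic subunit of the enzyme complex that places N6-methyladenosine on RNA, and its loss leaves mouse embryonic stem cells viable. The regions described here are H3K27ac peaks of the Control line that had no counterpart in KO1, the first of the study's knockout lines. They were taken as the autosomal peaks of Control replicate 1 that overlapped a Control replicate 2 peak and overlapped no peak of KO1 replicate 1 or replicate 2, by 1 base or more. Of 29478 autosomal peaks in Control replicate 1, 22801 were shared with replicate 2, and 974 of these shared regions met the rule. They were thus chosen by the H3K27ac peak calls of Control and KO1, and H3K27ac values in those lines are given as a description.

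All groups were mouse embryonic stem cells of strain C57BL/6, grown in serum with LIF, CHIR99021 and PD0325901, inhibitors of GSK3 and MEK that hold the cells in a naive state. The groups were Mettl3 KO1, Mettl3 KO2 and Mettl3 Control, with 2 H3K27ac and 2 H3K4me3 libraries each, and the 6 inputs were not analysed here. How each line was derived, whether a knockout line is 1 clone, and whether the 2 libraries of a group came from separate cultures are not given in the sources used here, so the replicate spread may be technical. The data are lists of MACS2 peaks on mm10, each peak with a fold enrichment over local background. The Control replicate 1 fold of a region is that of the region's own peak. For Control replicate 2 and KO2 it is the highest fold among the peaks that overlap the region, and such a peak can extend beyond it. Peaks numbered 40210 and 39048 in KO1, 65398 and 61383 in KO2, against 29973 and 32957 in Control for H3K27ac. For H3K4me3 they numbered 69995 and 69320 in KO1, 72303 and 66483 in KO2, against 83644 and 81608 in Control. Read depth is unknown from these lists, so the absence of a peak means only that none was called. As a check of cell type, shared H3K27ac regions lay nearest to 33 of 34 naive pluripotency genes and to 4 of 20 fibroblast genes that would mark feeder cells. They also lay nearest to 13 of 19 formative and primed genes and 9 of 18 neuroectoderm genes, beside 8176 of all 20661 autosomal coding genes.

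The share of regions absent in KO1 was 4.27% of the shared Control regions. Taken with a single list, 4583 and 5899 of the 29478 Control replicate 1 peaks had no peak in KO1 replicates 1 and 2, 7.64% and 8.34% had none in KO2 replicates 1 and 2, and 6677 (22.7%) had none in Control replicate 2. Fewer peaks were missing from either KO1 list than from the second Control list, which is shorter than both KO1 lists, and a longer list overlaps more peaks. Counted the other way, 4580 of 27918 regions shared by both KO1 libraries (16.4%) had no Control peak. Leaving out KO1 replicate 1 raised the count to 2631 regions and leaving out KO1 replicate 2 raised it to 1820. Leaving out Control replicate 1 gave 4660 regions and leaving out Control replicate 2 gave 2995.

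A few of the regions coincided with gene starts and stood alone, with no KO1 H3K27ac peak within 5 kb. The sequences before 5 of these starts are shown because the region overlaps them and no KO1 peak was called within 5 kb. Each is the 250 bases before the start on the coding strand, from RefSeq's GRCm38.p6 promoter table, chosen after the values were seen. Capitals mark GGGCGG (or CCGCCC on the other strand), the core of the GC box that Sp and Klf factors bind, and CCAAT (or ATTGG), the box bound by NF-Y.
Jak3, chr8:71676133-71676382, + strand: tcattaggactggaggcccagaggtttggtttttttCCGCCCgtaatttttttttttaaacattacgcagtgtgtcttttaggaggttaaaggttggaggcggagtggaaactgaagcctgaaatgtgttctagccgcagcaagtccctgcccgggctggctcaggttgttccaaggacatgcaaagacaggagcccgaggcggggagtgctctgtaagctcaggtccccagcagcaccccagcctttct
Pfn4, chr12:4769045-4769294, + strand: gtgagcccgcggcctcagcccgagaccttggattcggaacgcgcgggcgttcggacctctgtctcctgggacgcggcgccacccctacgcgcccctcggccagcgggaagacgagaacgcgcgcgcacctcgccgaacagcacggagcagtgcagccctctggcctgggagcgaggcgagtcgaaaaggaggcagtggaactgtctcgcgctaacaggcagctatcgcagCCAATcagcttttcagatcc
Srp54a, chr12:55080246-55080495, + strand: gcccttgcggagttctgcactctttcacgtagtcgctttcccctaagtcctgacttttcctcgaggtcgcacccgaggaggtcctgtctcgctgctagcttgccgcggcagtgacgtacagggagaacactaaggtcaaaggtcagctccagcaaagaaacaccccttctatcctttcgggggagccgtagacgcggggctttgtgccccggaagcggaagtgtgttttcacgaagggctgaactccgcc
Fbxl18, chr5:142895239-142895488, - strand: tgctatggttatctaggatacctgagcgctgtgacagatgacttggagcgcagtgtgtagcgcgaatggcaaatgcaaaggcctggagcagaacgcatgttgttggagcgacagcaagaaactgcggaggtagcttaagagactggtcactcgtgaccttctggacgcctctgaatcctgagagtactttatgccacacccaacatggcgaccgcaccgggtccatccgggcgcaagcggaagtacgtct
Prdm9, chr17:15564355-15564604, - strand: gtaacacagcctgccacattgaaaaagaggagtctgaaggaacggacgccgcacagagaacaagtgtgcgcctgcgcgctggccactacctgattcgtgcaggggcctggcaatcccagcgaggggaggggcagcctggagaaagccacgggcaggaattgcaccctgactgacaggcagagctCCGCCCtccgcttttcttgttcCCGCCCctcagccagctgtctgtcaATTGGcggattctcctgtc
A GC box was found in 32.7% and a CCAAT box in 33.9% of the 32851 windows of the table, and the median window held 6 CG pairs. Prdm9 held 2 GC boxes and 1 CCAAT box, Jak3 1 GC box, Pfn4 1 CCAAT box, and neither was found before Srp54a and Fbxl18. The region at Srp54a also overlapped the window before 2700097O09Rik on the other strand, which held 2 GC boxes, 1 CCAAT box and 28 CG pairs. The region at Fbxl18 likewise overlapped the window before Gm38733, which held neither box. CG pairs numbered 30 before Pfn4, 18 before Srp54a, 16 before Fbxl18, 13 before Prdm9 and 8 before Jak3. Among the regions searched, which were not all of the 974, 8 lay over such a window and more than 5 kb from a KO1 peak.

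These 5 promoter regions had H3K27ac in both KO2 libraries. At Jak3, a tyrosine kinase of cytokine receptors, the peak (chr8:71676291-71676620) had a fold of 3.67 and 5.94 in KO2, against 4.29 and 4.87 in Control, with the nearest KO1 peak 46584 bp away. At Srp54a, a subunit of the signal recognition particle, the fold was 4.76 and 5.40 in KO2, against 6.46 and 5.63 in Control, with the nearest KO1 peak 93952 bp away. At Prdm9, the methyltransferase that places meiotic recombination hotspots, it was 8.92 and 7.45 in KO2, against 5.84 and 8.11 in Control.

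The regions were weak and narrow Control peaks. Their median fold was 4.51 in Control replicate 1 and 5.10 in replicate 2, against 5.93 and 6.67 over all shared regions, and their median width was 228 bp, against 415 bp. When the shared regions were ranked by mean Control fold and split into 5 equal bins, the share absent in KO1 was 11.9% in the weakest bin, then 6.61%, 2.15%, 0.548% and 0.110% in the strongest. The strongest bin held 5 of the regions. These values are part of what chose the regions and carry no test.

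**Figure D1:**
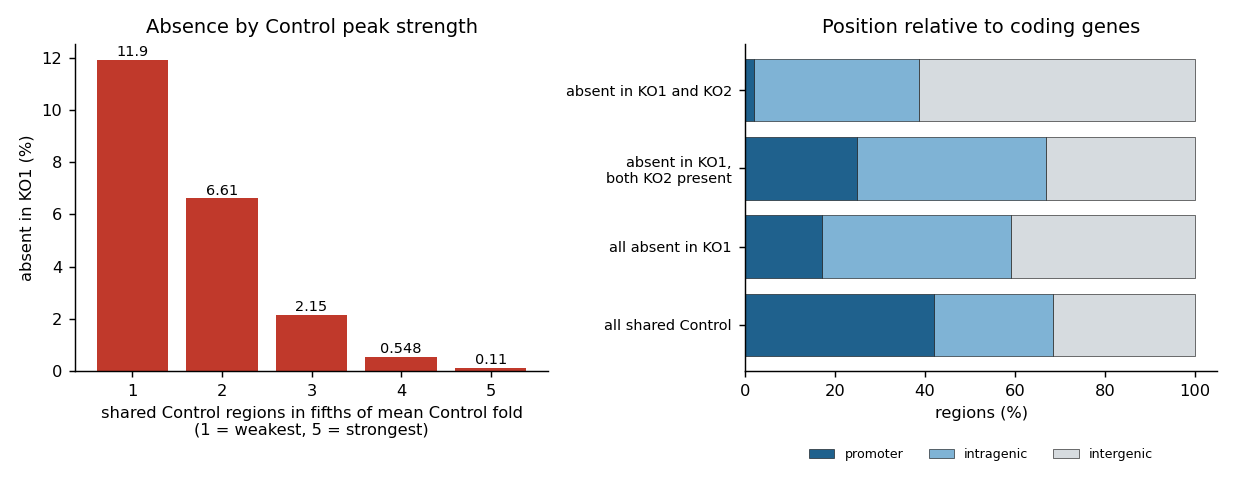
Left, percent of shared Control H3K27ac regions absent in KO1 in 5 equal bins of mean Control fold, with 11.9% in the weakest bin and 0.110% in the strongest. Right, percent of regions in promoters, inside genes and between genes; promoters hold 2.06% of regions absent in KO1 and KO2, 140 of the 560 absent in KO1 with a peak in both KO2 libraries, 17.1% of all regions absent in KO1 and 42.1% of all shared Control regions.

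Many of the regions lay beside H3K27ac that KO1 kept. A KO1 peak began within 100 bp of 175 regions, within 1 kb of 703 (72.2%) and within 5 kb of 809 (83.1%), and 69 of the 974 had none within 50 kb. At the edge of the rule, regions at Slc44a1 and Hmgb1 touched a KO1 peak with no base between them. Just outside it, shared regions at Taf5l, Efna4, Sp3 and Sppl3 overlapped a KO1 peak by 1 base. The 86 regions within 50 bp of a KO1 peak had a median Control replicate 1 fold of 4.41, and the 142 other shared regions overlapping a KO1 peak by at most 50 bp had 4.46.

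Within a window of about 2 kb centred on each region, H3K27ac peaks covered on average 13.2% and 11.3% in KO1, 39.6% and 37.9% in KO2, against 27.8% and 28.7% in Control. Over all shared regions the same windows were covered to 47.9% and 43.5% in KO1, 65.0% and 64.4% in KO2, against 42.6% and 42.4% in Control. KO2 thus had more H3K27ac coverage around the regions than Control did, while its lists were also the longest.

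**Figure D2:**
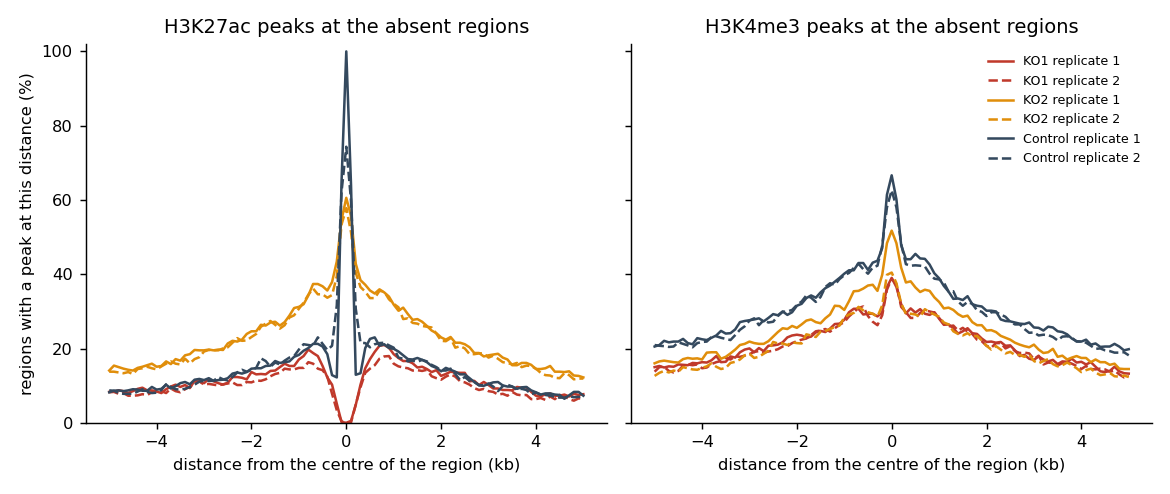
Percent of the 974 regions with an H3K27ac peak (left) or an H3K4me3 peak (right) at each distance from the region's centre, 1 line per library. The drop of KO1 H3K27ac to 0 at the centre and the peak of both Control lines there are set by the rule; in the H3K4me3 panel, which the rule did not use, both KO1 lines stay below both Control lines over the centre.

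The KO2 lists split the regions 3 ways. A KO2 peak was present in both libraries at 560 regions (57.5%), in 1 library at 220 (22.6%) and in neither at 194 (19.9%). Over all 22801 shared regions, both KO2 libraries had a peak at 21470 (94.2%) and neither had one at 487 (2.14%). The absences in KO1 and in KO2 are read against the same Control lists, so they are not independent of each other. Where both KO2 libraries had a peak, its median fold was 6.46 in each, against 4.60 and 5.25 in the Control replicates at these 560 regions. A KO2 peak in both lists defines this class and the regions were weak Control peaks, so these folds are a description and carry no test. The share with no KO2 peak depended on the lists: it was 42.3% when every list was shortened to an equal number of peaks, and 13.2% when a KO1 peak had to cover 50% of a region to count.

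Relative to coding genes, the regions lay away from promoters. A promoter was taken as the 2.5 kb on either side of an annotated start, or of both gene ends where the reference table gave no start. By this measure 167 regions (17.1%) were in promoters, 410 (42.1%) elsewhere inside genes and 397 (40.8%) between genes, against 42.1%, 26.5% and 31.4% of all shared regions. The 194 regions absent from both knockout lines were farther out, with 4 in promoters (2.06%), 71 inside genes (36.6%) and 119 between genes (61.3%). The 560 regions kept in both KO2 libraries had 140 in promoters, 235 inside genes (42.0%) and 185 between genes (33.0%). The median distance to the nearest start was 69105 bp for regions with no KO2 peak, 15482 bp for those with a peak in both KO2 libraries, 24280 bp over the 974 and 6718 bp over all shared regions.

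Among chromosomes, the share absent in KO1 was highest on chromosome 8, at 106 of 1441 shared regions (7.36%), and on chromosome 4, at 109 of 1527 (7.14%). Chromosomes 12 (6.25%), 6 (5.69%) and 13 (5.21%) followed, and chromosomes 9 (2.54%), 5 (2.71%), 15 (2.84%), 16 (2.87%) and 11 (2.98%) were lowest. Chromosomes 4, 8 and 12 together held 263 of the 974 regions and 3736 of the 22801 shared regions. Of the regions on chromosome 13, 18 of 49 had no KO2 peak (36.7%), the highest such share of the 19 autosomes, and on chromosome 15 it was 2 of 25.

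The local background that MACS2 used at each peak differed between the lines along the same chromosomes. It was recovered from each peak's fold and p-value and expressed per library relative to that library's other autosomes. Between 10.9% (KO1 replicate 2) and 53.0% (KO1 replicate 1) of H3K27ac peaks had a single solution, and the mean of the solutions was taken at the rest, so the values are approximate. On chromosome 8 the H3K27ac background was 0.976 in KO1 and 1.03 in KO2, against 1.27 in Control, a ratio of 0.766 for KO1 over Control. The libraries there had 0.987 and 0.964 in KO1, against 1.30 and 1.24 in Control. The KO1 over Control ratio was 0.908 on chromosome 4, 0.911 on chromosome 12, 0.917 on chromosome 6, 0.971 on chromosome 13 and 1.17 on chromosome 11. Over the 19 chromosomes, the ratio and the share absent in KO1 had a Pearson r of -0.826 and a Spearman rho of -0.675, and without chromosome 8 they were -0.756 and -0.618. These 19 points share the same libraries and are a description. Outside chromosomes 4, 8 and 12, 711 of 19065 shared regions (3.73%) were absent in KO1, and 19.3% of them had no KO2 peak. In the H3K4me3 lists the KO1 over Control ratio was 0.774 on chromosome 8, 0.904 on chromosome 4 and 0.896 on chromosome 12. It had a Pearson r of -0.856 with the share absent in KO1. The part of the background in the absences, and in H3K4me3 at the regions, was not tested.

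**Figure D3:**
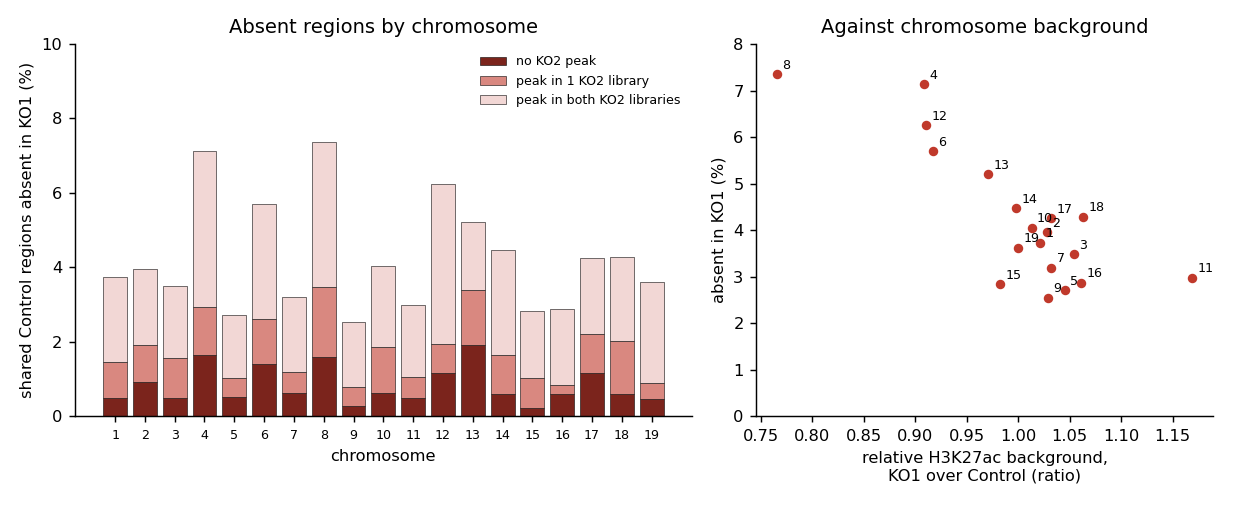
Left, percent of shared Control H3K27ac regions absent in KO1 per chromosome, split by how many KO2 libraries had a peak. Right, the same percent against the relative H3K27ac background of KO1 over Control, 1 point per chromosome labelled with its number; chromosome 8 has the lowest ratio, 0.766, and the highest share, 7.36%.

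H3K4me3, which the rule did not use, overlapped fewer of the regions in either KO1 library than in either Control library. An H3K4me3 peak overlapped 46.0% and 47.1% of the regions in KO1, 59.2% and 48.7% in KO2, against 74.6% and 71.6% in Control. Over all shared regions the shares were 91.2% and 90.6% in KO1, 92.8% and 89.4% in KO2, against 92.6% and 91.6% in Control. Peaks were present in both Control and neither KO1 library at 156 regions (16.0%), where 1.93% of all shared regions showed this. They were present in both KO1 and neither Control library at 2 (0.205%), where 1.23% of all shared regions showed this. A total of 285 regions (29.3%) had H3K4me3 in all 6 libraries and 104 (10.7%) in none, where 79.3% and 1.07% of all shared regions did.

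Mean H3K4me3 coverage of the 2-kb windows was 30.9% and 30.4% in KO1, 38.2% and 31.2% in KO2, against 46.2% and 44.9% in Control. Over all shared regions it was 62.8% and 61.7% in KO1, 67.1% and 61.0% in KO2, against 64.5% and 63.3% in Control. Both KO1 libraries were below both Control libraries at 493 of the 974 regions (50.6%), where 25.3% of all shared regions showed this, and above both at 22 (2.26%), where 19.7% did. For KO2, 408 regions (41.9%) were below both Control libraries and 98 (10.1%) above, where 24.4% and 24.5% of all shared regions were.

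The 194 regions with no KO2 H3K27ac peak averaged 11.3% and 11.8% in KO1 and 8.65% and 5.99% in KO2, against 29.2% and 25.7% in Control. The 560 regions with a peak in both KO2 libraries averaged 40.4% and 39.7% in KO1 and 53.4% and 44.7% in KO2, against 54.2% and 53.5% in Control. Both KO1 libraries were below both Control libraries in either class. In the second class KO2 replicate 1 was level with Control and KO2 replicate 2 was below it. An H3K4me3 peak overlapped 12.4% and 8.25% of the 194 regions in KO2, against 57.2% and 50.5% in Control. Over all 487 shared regions with no KO2 peak it was 13.6% and 8.62% in KO2, against 60.0% and 51.1% in Control. These 487 include the 194, and the KO2 difference was not particular to regions absent in KO1. In KO1 the shares were 17.5% and 21.1% of the 194 and 35.9% and 35.1% of the 487. In mean coverage, the lines lay closest together at promoter regions. These averaged 61.8% and 62.4% in KO1 and 66.5% and 60.9% in KO2, against 69.3% and 68.9% in Control. Regions between genes averaged 16.4% and 16.1% in KO1 and 24.7% and 19.5% in KO2, against 30.9% and 30.8% in Control, while all shared regions between genes averaged 47.7% and 46.2% in KO1, 54.1% and 46.8% in KO2, against 47.5% and 45.9% in Control.

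**Figure D4:**
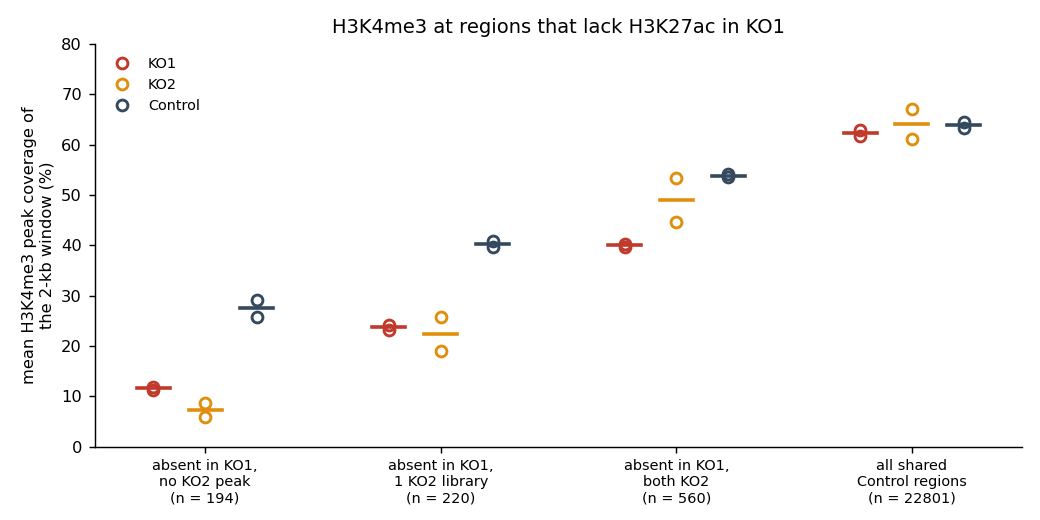
Mean percent of the 2-kb window covered by H3K4me3 peaks, 1 circle per library and a bar at the mean of 2, for regions absent in KO1 with a peak in no, 1 or both KO2 H3K27ac libraries and for all shared Control regions. KO1 circles lie below Control circles in the 3 classes of absent regions and, by a smaller distance, at all shared regions, where the KO2 circles span those of Control.

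Tested region by region with limma over all 21845 windows that passed a filter of 5% mean coverage, no KO1 difference passed Benjamini-Hochberg adjustment at 0.05. That gave 0 calls among the 838 regions that passed and 0% of all windows. At an unadjusted p under 0.05, 294 of the 838 were lower and 1 was higher in KO1. Of all 21845 windows, 3763 passed at that level, and 2249 (10.3%) were lower. The median difference of KO1 minus Control was -14.2 percentage points, against -0.70 over all windows. Outside chromosomes 4, 8 and 12 the median was -11.1 points over 622 regions, against -0.025 over all such windows. There 193 regions (31.0%) were lower in KO1 at an unadjusted p under 0.05 in limma, where 8.56% of all such windows were. The 136 regions that did not pass comprised 111 with a mean coverage under 5% and 25 with the same value in all 6 libraries. With a 4-kb window, 144 of 826 regions were lower and 0 higher in KO1, where 3.64% of all windows were lower and 1.37% higher. With quantile normalization 46 were lower and 0 higher, where 0.742% of all windows were lower and 0.558% higher.

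In KO2, 53 of the 838 regions were lower and 3 higher than Control by the same test, where 1.4% of all windows were lower and 1.41% higher. The lower ones included 23 of 134 regions with no KO2 H3K27ac peak, 18 of 185 with a peak in 1 KO2 library and 12 of 519 with a peak in both. These classes are set by KO2 H3K27ac, and calls over all windows were not counted by class. The order of the classes is thus not read as a trait of regions absent in KO1. With the 4-kb window 185 of 826 were lower and 15 higher in KO2, where 8.36% of all windows were lower and 5.12% higher. With quantile normalization 120 were lower and 10 higher, where 3.2% and 3.25% of all windows were. No 2-kb call held when any 1 of the 6 libraries was left out or when the replicate number was fitted as a block. KO2 minus KO1 gave 0 calls among the regions and over all windows in limma; at an unadjusted p under 0.05, 161 of the 838 differed, 42 lower and 119 higher in KO2, where 3771 of all 21845 windows differed and 1426 of these were lower, so the total was near that background. With the 4-kb window 5 were lower and 34 higher in KO2 than in KO1, where 1.16% and 1.91% of all windows were. With quantile normalization 10 of 838 were lower (1.19%) and 13 higher (1.55%), where 0.81% and 0.906% of all windows were.

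The longest unbroken run of regions lay inside Snapc3, which encodes a subunit of the complex that activates small nuclear RNA genes. Its 4 consecutive shared regions, chr4:83438041-83440550, had no KO1 peak in either library, 1 peak of fold 3.81 in KO2 replicate 2 alone, against 4 peaks in each Control library with a highest fold of 7.87 and 5.63. The nearest KO1 peak was 19915 bp or more away. At the third of these regions (chr4:83439389-83440036), H3K4me3 covered 12% and 22.6% of the window in KO1 and 0% in both KO2 libraries, against 82.2% and 77.5% in Control. The difference was -79.9 ± 6.56 points (SE) for KO2 minus Control (limma adjusted p = 0.0362) and -62.6 ± 6.56 points for KO1 minus Control (limma adjusted p = 0.0644).

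The second locus was intergenic, between Dlk1 and Meg3 on chromosome 12, a stretch that holds the control region of that imprinted domain in mouse. It is shown in a plot because of its position, which was chosen after its values were seen, while its larger region is also named by the rule on H3K4me3 change. The 2 regions, chr12:109529293-109529594 and chr12:109529942-109530240, have Rtl1 as nearest coding gene and lay over 400 kb from any KO1 H3K27ac peak (417237 and 416591 bp). Between the end of Dlk1 and the start of Meg3, 77659 bp, there were 0 H3K27ac peaks in either KO1 library and 0 and 1 in KO2, against 4 in each Control library. In the same interval H3K4me3 peaks covered 391 and 666 bp in KO1 and 450 and 246 bp in KO2, against 6004 and 6302 bp in Control. At the first region the H3K4me3 window was covered to 0% and 14.0% in KO1 and 19.9% and 12.3% in KO2, against 93.2% and 90.7% in Control, and the change was -75.8 ± 7.32 points for KO2 minus Control (limma adjusted p = 0.0362) and -84.9 ± 7.32 points for KO1 minus Control (limma adjusted p = 0.0644).

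**Figure D5:**
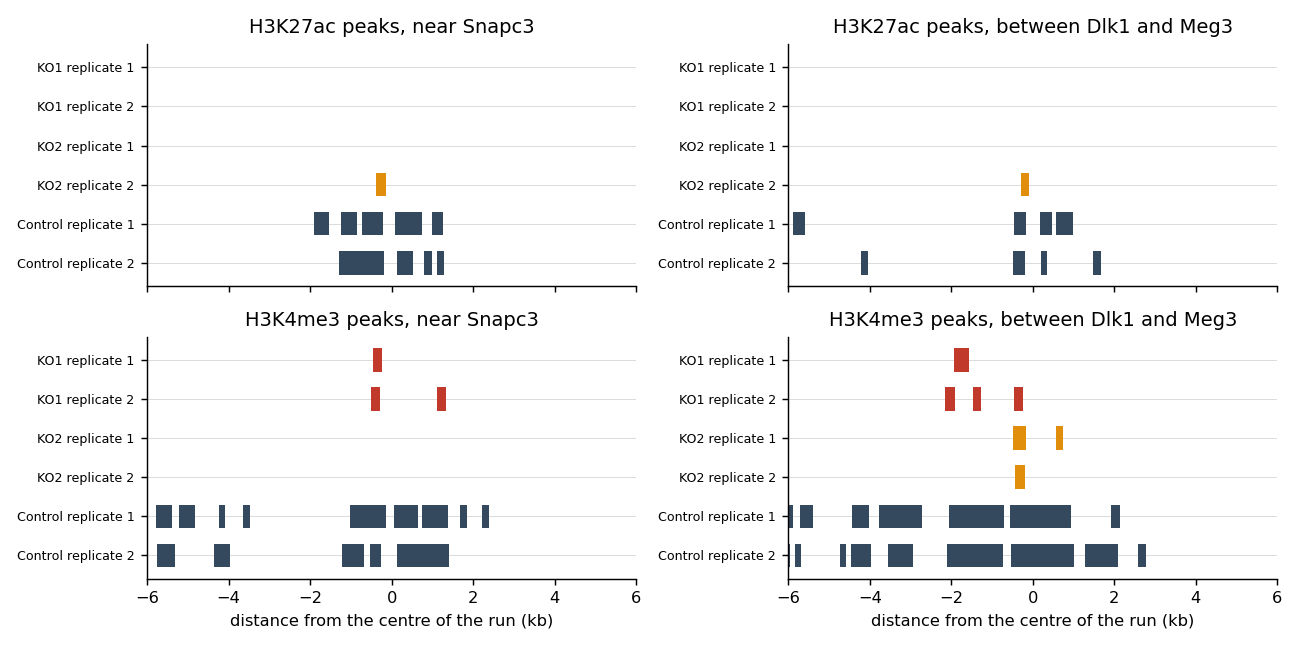
H3K27ac (top) and H3K4me3 (bottom) peaks of each library within 6 kb of the run of 4 regions inside Snapc3 (left) and of the 2 regions between Dlk1 and Meg3 (right), drawn to scale by distance. At either locus the Control libraries show 4 or 5 H3K27ac peaks, the KO1 libraries and KO2 replicate 1 show none and KO2 replicate 2 shows 1.

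Most regions were scattered: 759 stood alone between shared regions that KO1 kept, and runs of 2, 3 and 4 consecutive absent regions numbered 89, 11 and 1. The 974 regions had 782 nearest coding genes, of which 640 had 1 region, 115 had 2 and 27 had 3 or more. Tmem232, a transmembrane protein gene, and Slc44a1, a choline transporter gene, had 6 each, of 8 and 14 shared regions. The Tmem232 regions fell within chr17:65219054-65227499 and comprised 2 runs of 3. At 1 of them (chr17:65225363-65225642) H3K4me3 covered 0% in both KO1 and both KO2 libraries, against 55.1% and 53.9% in Control, while the last region of the cluster kept H3K27ac in both KO2 libraries with folds of 4.37 and 3.56, against 4.29 and 7.13 in Control. At Slc44a1, 5 regions lay near chr4:53337812-53340975, 99589 to 102395 bp from the gene, with the first run of 3 covered by H3K4me3 to between 0% and 10.6% in KO1 and between 8.0% and 28.3% in KO2, against 50.8% to 69.3% in Control.

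Cemip, which encodes a hyaluronan-binding protein, had 5 of its 7 shared regions absent, all inside the gene. At 4 of these 5 H3K4me3 covered 0% in both KO1 and both KO2 libraries, against 18.5% to 52.0% in Control. Klf6, a zinc-finger transcription factor, had 5 of 15 absent, Sall1, a repressor of development genes, 5 of 33, and Fat1, an atypical cadherin, 5 of 12. Immp2l, a mitochondrial peptidase gene, had 5 of 15, and Plpp3, Arl15, Manba and Macf1 had 4 each, of 13, 13, 20 and 34. At Manba, a lysosomal mannosidase gene, all 4 regions had H3K27ac in both KO2 libraries and at Macf1 and Plpp3 likewise. At the first Manba region (chr3:135560762-135560949) H3K4me3 covered 0% in both KO1 libraries and 60.6% and 34.0% in KO2, against 55.7% and 70.5% in Control. Another run of 3, chosen after its values were seen, lay by the olfactory receptor gene Olfr129, whose 3 shared regions were all absent in both knockout lines. The windows of that run kept H3K4me3 to a varying degree, with the first covered to 100% and 84.1% in KO1 and 53.1% and 63.7% in KO2, against 100% in both Control libraries.

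By Control strength, the regions absent in both knockout lines were led by 1 between genes 330264 bp from Gnai1, an inhibitory G protein subunit, with folds of 6.29 and 12.9 in the Control replicates. Next were a region inside Aspm, a mitotic spindle gene, with 3.43 and 13.1, and a region 31429 bp from Ric8b, a chaperone of G protein subunits, with 6.66 and 7.88. The other 9 of the 12 strongest lay nearest to Agk, Nmbr, Six4, Polr3g, Slc20a1, Fam98a, Gm12887, Vmn1r213 and Ksr2, and none was in a promoter. Among them Agk, a mitochondrial lipid kinase gene, had H3K4me3 of 43.1% and 59.4% in KO1 and 11.6% and 3.8% in KO2, against 75.9% and 65.5% in Control, a change of -63.0 ± 8.23 points for KO2 minus Control (limma adjusted p = 0.0367). The folds differed between the Control replicates by more than 2-fold at several of the strongest, so this order rests partly on replicate 2. At Aspm the fold of 13.1 came from 1 replicate 2 peak that overlapped 2 of the absent regions. A KO1 H3K27ac peak lay 81 bp from the region by Gnai1, 18149 bp from that by Nmbr and 440958 bp from that by Gm12887. The rest of the 12 lay 58 to 557 bp from a KO1 peak. In the window by Gnai1 H3K27ac covered 25.1% and 29.7% in KO1 and 23.5% and 34.3% in KO2, against 54.6% and 60.2% in Control.

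Among the 8 strongest regions with a peak in both KO2 libraries, 7 lay nearest to Scn3a, Gucy1a2, Sh3gl3, Pnn, Nox3, Nr4a1 and Klf12, with a KO1 peak 66 to 1364 bp away. The region near Scn3a, a sodium channel gene, had a fold of 5.33 and 13.1 in KO2, against 5.97 and 15.9 in Control. H3K4me3 there covered 94.9% and 74.8% in KO1 and 46.7% and 44.9% in KO2, against 100% and 95.3% in Control (KO2 minus Control -51.8 ± 7.19 points, limma adjusted p = 0.0375). The region by Pnn, a nuclear speckle protein gene, lay in a promoter and had a fold of 9.61 and 18.2 in KO2, against 3.65 and 11.4 in Control.

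The other regions with the largest KO2 decreases in H3K4me3 lay inside Cradd and Nod1 and near Tmem232. At Cradd, a death-domain adaptor gene, coverage was 7.85% and 0.800% in KO1 and 2.95% and 0% in KO2, against 82.5% and 69.3% in Control (KO2 minus Control -74.4 ± 7.15 points, limma adjusted p = 0.0362). At Nod1, a sensor of bacterial cell wall peptides, coverage was 87.0% and 100% in KO1 and 31.1% and 22.9% in KO2, against 100% in both Control libraries. There KO1 stayed near Control, at -6.52 ± 6.11 points, although the region had no H3K27ac peak in either knockout line. The 3 regions called higher in KO2 lay at R3hdm2, Pate11 and Tbl1xr1, all with H3K27ac in both KO2 libraries. At Pate11 coverage was 20.3% and 16.1% in KO1 and 62.5% and 54.4% in KO2, against 21.2% and 19% in Control (KO2 minus Control 38.4 ± 6.25 points, limma adjusted p = 0.0453).

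H3K4me3 was also tested in a 4-kb window at the gene start, or inside the gene where no start was annotated, for 13100 coding genes with at least 5% mean coverage. Of 687 tested genes that lay nearest to an absent region, 31 were lower and 0 higher in KO1, where 1.62% of all genes were lower and 0.13% higher. In KO2, 61 were lower and 5 higher, where 6.03% of all genes were lower and 1.31% higher. Among the 7486 tested genes nearest to any shared region, 1.98% were lower in KO1 and 8.15% lower in KO2, so the 8.88% of the 687 that were lower in KO2 was near that share, while in KO1 it was 4.51%. Of the 31 genes lower in KO1, 12 were on chromosome 8, and 16 lay outside chromosomes 4, 8 and 12, where 1.09% of all genes were lower. The part of the chromosome background in these calls was not tested. The split also depended on scaling: the median over all genes was -2.31 points in KO1 and, with quantile normalization, 0.51, where 19 nearest genes were lower and 1 higher in KO1, beside 0.817% and 0.511% of all genes. For KO2 the same scaling gave 36 lower (5.24%) and 23 higher (3.35%), beside 3.04% and 3.15% of all genes, so the share higher was at the background. Leaving out 1 library gave 0 to 13 decreases in KO1, with 0 without Control replicate 1 or either KO1 library, and 0 to 50 in KO2. KO2 minus KO1 called 1 nearest gene lower (0.146%) and 6 higher (0.873%), where 0.183% and 0.496% of all genes were.

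The largest KO1 decreases were at Zmat4, Ccdc141, Gm33153, Fat1 and Bcam, and Zmat4, Gm33153 and Fat1 are on chromosome 8, where the KO1 over Control background was 0.766. Fat1 was covered to 0% in both KO1 libraries and to 0% and 4.75% in KO2, against 51.9% and 42.3% in Control (KO1 minus Control -47.1 ± 3.64 points, limma adjusted p = 0.00940). Zmat4, a zinc-finger gene measured in a window inside the gene, was covered to 28.1% and 28.5% in KO1 and 53.5% and 31.2% in KO2, against 91.3% and 91.9% in Control (KO1 minus Control -63.3 ± 6.69 points, limma adjusted p = 0.0173). Ccdc141, a coiled-coil protein gene on chromosome 2, was covered to 16.1% and 27.3% in KO1 and 30.4% and 28.7% in KO2, against 71.0% and 72.3% in Control. Bcam, a laminin receptor gene on chromosome 7, was covered to 38.5% and 32.4% in KO1 and 67.6% and 70.5% in KO2, against 73.8% and 84.5% in Control (KO1 minus Control -43.7 ± 4.73 points, limma adjusted p = 0.0175). Both shared H3K27ac regions of Bcam were absent in KO1 with the nearest KO1 peak 20853 bp away, and both were present in KO2 with folds of 6.41 and 10.4 at the first, against 6.87 and 6.00 in Control. At Jak3, chosen after its values were seen and with its promoter sequence given above, coverage was 19.9% and 21.9% in KO1 and 30.9% and 32.8% in KO2, against 38.1% and 42.3% in Control (KO1 minus Control -19.4 ± 3.05 points, limma adjusted p = 0.0357).

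In KO2 the largest decreases were at Gm33153, Zmat4, Pdk1, Fat1 and Ccdc141, of which 4 are also in the KO1 list. Both contrasts share the Control libraries. Pdk1, a kinase that inhibits pyruvate dehydrogenase, was covered to 73.2% and 79.1% in KO1 and 49.2% and 31.1% in KO2, against 90.7% and 87.1% in Control (KO2 minus Control -48.8 ± 5.94 points, limma adjusted p = 0.00843). The 5 genes higher in KO2 were Sntg1, Rgs17, Sh3pxd2a, St14 and Prag1. St14, a membrane serine protease gene measured inside the gene, was covered to 41.4% and 51.0% in KO1 and 97.4% and 91.1% in KO2, against 71.0% and 61.2% in Control (KO2 minus Control 28.2 ± 5.07 points, limma adjusted p = 0.0226).

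Of the gene lists, 34 naive pluripotency genes had 361 shared regions, of which 16 were absent in KO1 (4.43%), beside 4.27% over all shared regions. Over all 974 regions, 57.5% had a peak in both KO2 libraries and 19.9% in neither. Of the 167 regions in promoters, 140 had a peak in both. Of the 16 at naive pluripotency genes, 15 had a peak in both KO2 libraries and none was absent from both KO2 libraries. They lay at Sall4, Sox2, Tet2, Klf4, Lin28a, Zfp42, Trim71, Stat3, Mycn, Esrrb, Jarid2 and Klf5, and the other at Nr5a2 had a peak in 1 KO2 library. The region in the promoter of Zfp42, a marker of naive cells, had a fold of 16.7 and 12.9 in KO2, against 3.08 and 4.64 in Control. The KO2 folds are those of overlapping peaks, which can extend beyond the region. A KO1 peak lay 304 bp away, and H3K4me3 coverage was 100% in all 6 libraries. The regions in the promoters of Klf4 and Klf5, factors of the naive network, were likewise covered to 100% in all 6. The region 232675 bp from Sox2 had a fold of 5.95 and 7.41 in KO2, against 5.43 and 5.22 in Control. At Lin28a, an RNA-binding protein that blocks let-7 maturation, the nearest KO1 peak was 4848 bp away. Esrrb, a nuclear receptor of naive cells, had 2 of its 29 shared regions absent, and its annotated start, a value chosen after it was seen, was covered by H3K4me3 to 0% and 6.45% in KO1 and 26.7% and 27.8% in KO2, against 22.4% and 21.7% in Control (KO1 minus Control -18.8 ± 2.95 points, limma adjusted p = 0.0352).

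The other lists were smaller, and most had a share near that of all shared regions. Absent regions were 3 of 81 for formative and primed genes (3.70%), 1 of 26 for primitive endoderm (3.85%), 1 of 29 for trophectoderm (3.45%), 1 of 24 for mesoderm and endoderm (4.17%), 0 of 38 for neuroectoderm and 0 of 21 for fibroblast genes. They were 3 of 74 for genes of the m6A machinery (4.05%), 1 of 71 for histone acetylation (1.41%) and 5 of 83 for Wnt and FGF signalling (6.02%). The region inside Wnt3a (chr11:59282546-59282783), a Wnt ligand that promotes self-renewal, was absent from both knockout lines, with folds of 5.23 and 5.63 in Control and a KO1 peak 419 bp away. Its H3K4me3 window was covered to 0% and 20.9% in KO1 and 0% in both KO2 libraries, against 57.7% and 63.4% in Control (KO2 minus Control -60.5 ± 8.41 points, limma adjusted p = 0.0375). Among m6A genes, the region nearest to Ythdf3, a reader, lay 670658 bp from the gene, and the regions at Igf2bp1 and Igf2bp2, binding proteins of modified RNA, had peaks in both KO2 libraries.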

How the data were processed

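H3K27ac and H3K4me3 ChIP-seq peak lists of Mettl3 KO1, KO2 and Control cells were used, 2 libraries each. Per the submitters' processing notes, the tools included Trimmomatic 0.38, Bowtie 1.2.2 and MACS2, and the build was mm10. In the deposited lists, each peak has the authors' fold enrichment ratio over local background and the −log10 of its p-value and q-value; peaks were called per library, and the highest q-value was 0.00998. Spike-in chromatin was added, per the labels' protocols; its use in making the lists was not stated. Read depth is unknown, and no counts or floors are given.

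Regions were found by the rule given above, and nearest genes were assigned from RefSeq (GRCm38.p6), with 16456 of 20661 autosomal coding genes having a start in the promoter table. For the other genes the promoter window was placed where H3K4me3 coverage inside the gene was highest over all libraries; 148 of the 687 nearest genes tested had such a window. Where a gene had several starts, the one with most H3K4me3 over all libraries was taken. H3K4me3 was measured as the percent of a 2-kb window (regions) or 4-kb window (gene starts) covered by peaks, and tested with limma 3.58.1 (trend, Benjamini-Hochberg over all windows, threshold 0.05, mean coverage of at least 5%) in R 4.3.3, with all 3 lines in the fit. Coverage is bounded at 0% and 100%, which limits its spread there. The local background was solved from fold and p-value. Both steps were also run on simulated data, in which coverage was not held between 0% and 100%. Those runs do not show how well either step works on these lists. Same-numbered replicates share only a number.

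Named regions and genes were the 12 strongest regions with no KO2 peak, the 8 strongest with a peak in both KO2 libraries, up to 12 genes with the most regions, up to 5 called lower and 5 higher with the largest change per contrast, the 5 longest runs, and regions of genes on the lists. Others are said where they appear to be chosen after their values were seen. Promoter sequences on chromosome 18 were not searched. The regions, gene lists and tests were chosen with earlier results of these data known. A region that the rule names is not reported here. Inputs were not analysed here.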

Additional observations from a re-analysis of the deposited data

Results flagged for a closer look

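In the limma test of KO2 minus KO1 itself, promoter-window H3K4me3 differed at 7 of 687 tested genes nearest to an absent region. Of the 687, 0.146% were lower and 0.873% higher in KO2, where 0.183% and 0.496% of all genes were. Both shares were small and near that background, and fewer genes were higher when any 1 library was left out. Higher in KO2 were St14 by 48.06 points (adjusted p = 0.0140), Prag1 by 40.15 points (0.0488), Il34 by 37.08 points (0.0140), Bcam by 33.63 points (0.0353), Ank3 by 26.57 points (0.0434) and Esrrb by 24.01 points (0.0210). Vmp1 was lower in KO2, at -21.31 points (0.0477). Il34, a ligand of the Csf1 receptor, was covered to 74.3% and 72.6% in KO2, against 37.4% and 35.3% in KO1, with 55.9% and 60.8% in Control, so KO2 lay above and KO1 below Control in every library. Prag1 and Il34 are on chromosome 8, and the windows of St14, Prag1, Il34 and Ank3 lie inside the gene.

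At the region near Tbl1xr1 (chr3:22024394-22024700) H3K4me3 covered 54.1% and 46.7% of the window in KO2, against 0% in both KO1 libraries, with 13.3% and 1.45% in Control. Both KO2 libraries were above and both KO1 libraries below Control, and KO2 minus KO1 was 50.38 points from the library means (limma adjusted p = 0.0673, which misses the threshold).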

How the results depend on the processing

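The count of 974 absent regions moved to 1878 when a KO1 peak had to cover 50% of the region, to 271 when a KO1 peak within 1 kb counted as present and to 1676 with equal numbers of peaks; leaving out single libraries gave 1820 to 4660. The share of them with no KO2 peak was 13.2%, 32.5% and 42.3% under those settings, 23.9% with stricter lists (−log10 q of at least 5), and 11.6% to 32.1% with single libraries left out. The chromosome 8 share was 12.3%, 2.64% and 11.4%, and 12.6% to 21.9% with single libraries left out; it exceeded the other chromosomes' share under every setting tried. Region calls were lost in places and gained in others. KO1 decreases went from 0 to 144 (4-kb window) and 46 (quantile). KO2 decreases went from 53 to 185 (4-kb window), 120 (quantile), 22 (stricter lists), and 0 for the region itself and for the replicate block; KO2 increases went from 3 to 15, 10, 6 (equal numbers), and 0 for the region itself and the block. KO2 minus KO1 gave 5 lower and 34 higher (4-kb window) and 10 lower and 13 higher (quantile) instead of 0. Every region count was 0 with any 1 library left out.

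Nearest-gene decreases in KO1 went from 31 to 19 (quantile), 15 (stricter lists), 11 (equal numbers) and 16 (outside chromosomes 4, 8 and 12, added after seeing the data), with 1 increase in each of the first 3 settings; leaving out single libraries gave 0 to 13 decreases. For KO2, quantile normalization gave 36 decreases and 23 increases instead of 61 and 5, and leaving out single libraries gave 0 to 50 and 0 to 3. For KO2 minus KO1, 1 lower gene became 0 (no filter, block) or 5 (quantile) and 0 to 4 with a library left out, and 6 higher genes became 11 (quantile), 3 (equal numbers, block, outside chromosomes 4, 8 and 12) and 0 to 2 with a library left out. The causes were not tested. The same-numbered libraries' deviations correlated at -0.00379, 0.018 and 0.00693 between lines, so the replicate block is no pairing. Of the named regions and genes, none reversed. Of their checks, 179 lost the call, 8 gained one and 252 were unchanged. The unchanged ones include checks with no call in either setting. Among these are checks of KO1 minus Control at the named regions, where the main fit made 0 calls and none could be lost.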
